A study of Mus musculus with 30 samples.

Results

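The genes described here are the 7 that encode the mouse DNA methyltransferases and the Tet dioxygenases, out of 20300 genes with exonic counts. They were taken by symbol, with earlier results of these data known: Dnmt1, Dnmt3a, Dnmt3b and Dnmt3l on the methyltransferase side, and Tet1, Tet2 and Tet3 on the oxidation side. All 7 had exonic and intronic counts, and all 7 passed the filter on low counts in both tables. RNA was read in EKOiE-Ccna-Gfp, an Esrrb knockout ES line of strain 129/Ola that carries an Esrrb transgene switched on by doxycycline (DOX) and a green fluorescent reporter of cyclin A2. Cells in early G1, late G1 and G2 were sorted on that reporter, either 24 h after DOX had been withdrawn or with DOX kept, with 3 libraries for each of the 6 groups. The knockout is present in every one of these groups, so that cells with DOX express the transgene and are not wild type. The 12 Esrrb ChIP-seq libraries came from mitotic cells 48 h after withdrawal (2 libraries) or with DOX (4 libraries), and from interphase cells 48 h after withdrawal (2 libraries) or with DOX (4 libraries). The interphase cells are labelled asynchronous. These ChIP-seq libraries came from EKOiE, except replicate 2 with DOX in mitosis and in interphase, which came from the wild-type line E14Tg2a. All cells grew in serum with LIF on gelatine, and no label says whether replicates came from separate cultures, so that p-values measure only the spread between these samples.

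DNA methylation marks cytosines that stand before guanine (CpG), and in ES cells its level is set by writers and erasers that act at the same time. Dnmt1 copies the mark to the new strand after replication, Dnmt3a and Dnmt3b place it on unmethylated DNA, and Dnmt3l has no catalytic activity but stimulates both de novo enzymes. Tet1, Tet2 and Tet3 oxidise 5-methylcytosine, which opens the way to its loss. Esrrb is an orphan nuclear receptor of the pluripotency network, and Dnmt3b and Dnmt3l are known to be expressed more highly as ES cells leave the naive state.

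The starts of Dnmt3b and Dnmt3l are shown because these are the members with the largest exonic changes given below. The sequences are the RefSeq windows of build GRCm38.p6 from 250 bases before to 50 bases after the start, 5′ to 3′ on the gene's strand. The Dnmt3b window is chr2:153649199-153649498 on the plus strand and the Dnmt3l window is chr10:78042037-78042336 on the plus strand. Capitals mark each CpG.
Dnmt3b: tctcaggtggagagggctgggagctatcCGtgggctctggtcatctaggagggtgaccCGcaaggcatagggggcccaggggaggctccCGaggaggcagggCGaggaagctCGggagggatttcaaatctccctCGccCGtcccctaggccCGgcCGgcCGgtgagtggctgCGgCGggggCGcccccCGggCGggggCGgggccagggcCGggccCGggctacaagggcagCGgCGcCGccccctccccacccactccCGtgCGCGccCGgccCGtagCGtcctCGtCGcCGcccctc
Dnmt3l: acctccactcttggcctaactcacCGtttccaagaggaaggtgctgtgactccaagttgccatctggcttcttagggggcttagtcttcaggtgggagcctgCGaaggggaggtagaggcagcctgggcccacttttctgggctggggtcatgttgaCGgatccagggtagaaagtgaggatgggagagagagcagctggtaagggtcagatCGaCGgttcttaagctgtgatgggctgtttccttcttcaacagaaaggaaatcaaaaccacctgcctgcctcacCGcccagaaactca
The Dnmt3b window holds 30 CpG and the Dnmt3l window 6, against a median of 7 (quartiles 3 and 20) over 32851 RefSeq windows of the same length. The windows of the other members at their outermost starts held 46 CpG for Dnmt3a, 2 for Dnmt1, 17 for Tet1, 57 for Tet2 and 22 for Tet3. For Dnmt1 a start 7.27 kb further in has 33 CpG. For Dnmt3l, shown at its outermost start, starts 7.6 and 13.0 kb further in have 4 and 3 CpG. The starts of Dnmt3b and Dnmt3l thus differ in CpG content. The motif AAGGTCA, the core of the sequence that estrogen-related receptors bind, was searched on both strands. It was in 0 of the 13 RefSeq windows of the 7 members and in 4.72% of all windows, which says only that these letters are not in these 300 bases.

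The depth and the checks of the samples were as follows. Exonic totals per library ran from 11.1 to 31.8 M (mega) counts, and introns took 33.3 to 46.0% of all counts. Exonic Esrrb averaged 162 ± 27.2, 165 ± 7.21 and 190 ± 6.67 CPM (counts scaled to a common library total, with TMM factors) after withdrawal in early G1, late G1 and G2, against 242 ± 37.8, 317 ± 28.3 and 273 ± 27.0 CPM with DOX (SD, n = 3). Withdrawal thus lowered Esrrb RNA but did not remove it, with log2 changes of -0.58, -0.94 and -0.52 (edgeR adjusted p = 0.120, 0.00385 and 0.0699, and 0.0138, 0.000395 and 0.0123 with the replicate block explained below). Ccna2, the gene of the sorting reporter, had changes of 0.07, 0.09 and 0.03 that did not pass (edgeR adjusted p = 0.942, 0.860 and 0.950). Transgene reads and reads of the knocked-out locus cannot be told apart in these counts. The 8 ES cell markers summed to 2615 to 3722 CPM after withdrawal and 2591 to 3567 CPM with DOX, and with the block 2 of them changed in G2, Lin28a (0.38 ± 0.09) and Nanog (-0.32 ± 0.10; edgeR adjusted p = 0.0108 and 0.0379). The 7 fibroblast or feeder markers summed to 7.05 to 11.9 CPM after withdrawal and 8.65 to 12.5 CPM with DOX, the 6 primitive endoderm markers to 4.39 to 13.4 and 7.55 to 12.4 CPM, the 4 trophoblast markers to 1.91 to 5.44 and 2.14 to 4.20 CPM, and the 3 neural markers to 3.44 to 7.06 and 1.98 to 5.53 CPM. The 3 of 4 listed 2-cell-like markers in the table summed to 44.7 to 255 CPM after withdrawal and 71.4 to 274 CPM with DOX. With the block the primitive endoderm marker Gata6 fell in late G1 (-1.38 ± 0.42) and G2 (-1.58 ± 0.38; edgeR adjusted p = 0.0471 and 0.0134). The neural sums were apart within late G1, at 4.94 to 6.55 CPM after withdrawal against 3.83 to 4.50 CPM with DOX, and within G2, at 5.70 to 7.06 against 3.61 to 5.53 CPM, although neither of the 2 neural markers tested, Pax6 and Sox1, passed. No other marker passed with the block and none without it, no marker of these 6 lists was at 0 in every library, and the part of these markers in the members' changes was not tested.

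The main comparison asked how the exonic RNA of these genes responds when Esrrb is lowered. After 24 h of withdrawal the mean exonic level of each of the 7 genes was higher than with DOX in all 3 phases, with log2 changes of 0.22 to 0.64 in early G1, 0.22 to 0.77 in late G1 and 0.31 to 0.83 in G2. Dnmt3b and Dnmt3l had the 2 largest changes in each phase, at 1.54-fold to 1.78-fold. They were the only members whose withdrawn libraries stood above every DOX library in all 3 phases, and this share of all genes was not counted. In the fit of group means, 0 of the 7 passed in any phase (edgeR, Benjamini-Hochberg adjustment over 14092 genes, threshold 0.05), against 0.163%, 0.461% and 0.972% of all genes in early G1, late G1 and G2. At an unadjusted p under 0.05 there were 3, 3 and 4 members, against 9.63%, 13.1% and 14.4% of all genes. DESeq2 called 0, 1 and 2 members, against 1.09%, 2.50% and 3.26% of the genes to which it gave an adjusted p. Libraries with the same replicate number deviated together, so the number was also used as a block. The block fits 1 effect per number that all 6 groups share, and is not a separate pairing within each phase. Its SEs and p-values pool the spread over the 3 phases, which may not be independent. In exons 7 of 9 pairs correlated best with their own number, while number 2 in early G1 and G2 did not. With this block Dnmt3b and Dnmt3l rose in every phase, 2 of 7 members each time, against 1.83%, 4.80% and 5.77% of all genes that rose. No member fell, against 2.20%, 4.24% and 5.44% of all genes.

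The median log2 change of the 7 was 0.37, 0.42 and 0.47 in early G1, late G1 and G2, against 0.00, 0.00 and -0.01 over all genes tested. The 3 phases of 1 replicate number may share a culture, so they are not independent repeats of this pattern. In these pooled cells, a change in the share of cells that express a gene and a change of RNA per cell cannot be told apart.

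**Figure D1:**
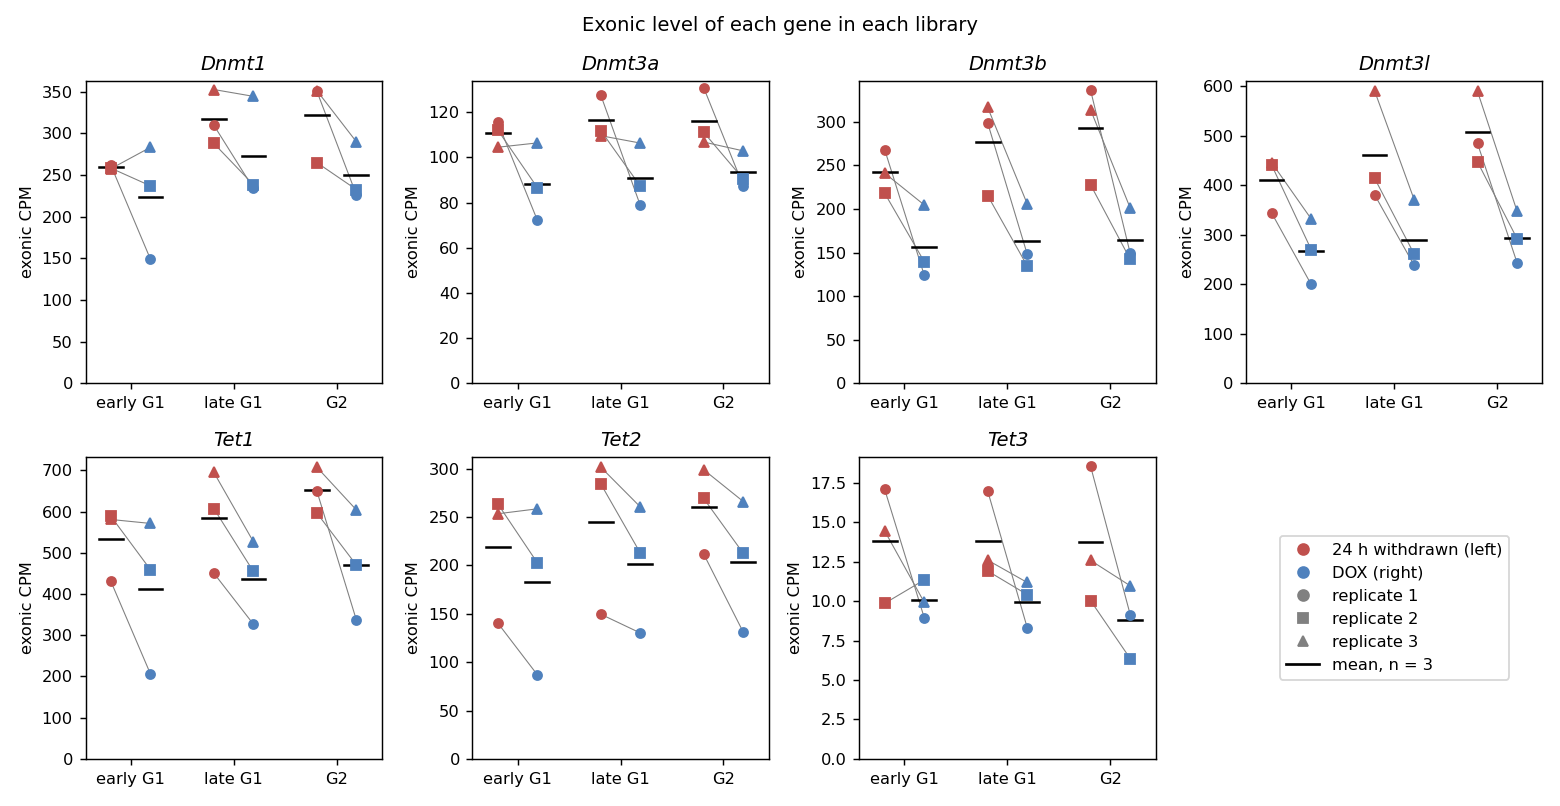
Exonic level in CPM (vertical axes, from 0) of each gene in each of the 18 libraries, by phase, with the withdrawn libraries in red on the left of each pair of columns and the DOX libraries in blue on the right. Grey lines join libraries of the same phase and replicate number, black bars are means of 3 libraries, and symbols mark the replicate number; the lines of Dnmt3b, Dnmt3l and Tet1 slope down to DOX in all 9 pairs.

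Dnmt3b, a de novo methyltransferase, is NM_010068 in the files, on the plus strand at chr2:153475184-153513466 in mm9. In early G1 it had 268, 218 and 241 CPM in withdrawn replicates 1, 2 and 3, against 124, 139 and 205 CPM with DOX. In late G1 it had 299, 215 and 317 CPM after withdrawal, against 148, 135 and 206 CPM with DOX. In G2 it had 336, 228 and 314 CPM after withdrawal, against 149, 142 and 201 CPM with DOX. The lowest of the 9 withdrawn libraries, at 215 CPM, stood above the highest of the 9 DOX libraries, at 206 CPM. By group mean the order of levels was G2, late G1 and early G1 after withdrawal, then G2, late G1 and early G1 with DOX, and within each DOX state neighbours in this order overlapped. The log2 changes were 0.64 ± 0.22, 0.77 ± 0.22 and 0.83 ± 0.22 (SE) in early G1, late G1 and G2, and none passed without the block (edgeR adjusted p = 0.324, 0.124 and 0.0720). With the block they were 0.66 ± 0.14, 0.77 ± 0.14 and 0.84 ± 0.14, and all 3 passed (edgeR adjusted p = 0.0122, 0.00299 and 0.00132). The early G1 call under the block was lost without replicate number 2 or 3 (edgeR adjusted p = 0.121 and 0.0515), and the late G1 call without number 2 (edgeR adjusted p = 0.0620). Without the block, leaving out G2 withdrawn replicate 2 brought a call in G2 (log2 change 0.99, edgeR adjusted p = 0.0485).

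Dnmt3l, the catalytically inactive cofactor of the de novo enzymes, is NM_001081695, on the plus strand at chr10:77505031-77526367 in mm9. In early G1 it had 344, 441 and 446 CPM in withdrawn replicates 1, 2 and 3, against 199, 270 and 332 CPM with DOX. In late G1 it had 381, 414 and 591 CPM after withdrawal, against 238, 261 and 371 CPM with DOX. In G2 it had 484, 447 and 589 CPM after withdrawal, against 243, 292 and 347 CPM with DOX. Within each phase the groups did not overlap, and all 9 same-numbered pairs were higher after withdrawal. Across phases they did overlap, since early G1 withdrawn replicate 1 stood below late G1 DOX replicate 3. Replicate 3 was the highest library of its group in each of the 6 groups. The log2 changes were 0.62 ± 0.22, 0.67 ± 0.22 and 0.79 ± 0.22 (edgeR adjusted p = 0.340, 0.172 and 0.0881). With the block they were 0.64 ± 0.11, 0.67 ± 0.11 and 0.80 ± 0.11, and all 3 passed (edgeR adjusted p = 0.00325, 0.00148 and 0.000295). The early G1 call under the block was lost without number 2 or 3 (edgeR adjusted p = 0.0640 and 0.0601), and the late G1 call without number 3 (edgeR adjusted p = 0.0699).

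Dnmt3a, the other de novo methyltransferase, is NM_007872, on the plus strand at chr12:3806979-3914443 in mm9. In early G1 it had 116, 112 and 105 CPM in withdrawn replicates 1, 2 and 3, against 72.2, 86.7 and 106 CPM with DOX. In late G1 it had 128, 112 and 110 CPM after withdrawal, against 78.8, 87.3 and 106 CPM with DOX. In G2 it had 131, 111 and 107 CPM after withdrawal, against 87.4, 90.45 and 103 CPM with DOX. The groups were apart in late G1 and G2 and overlapped in early G1, where replicate 3 was slightly higher with DOX. Its log2 changes of 0.32 ± 0.14, 0.36 ± 0.14 and 0.31 ± 0.14 missed the threshold without the block (edgeR adjusted p = 0.486, 0.277 and 0.331) or under it (edgeR adjusted p = 0.159, 0.0886 and 0.120).

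Dnmt1, the maintenance methyltransferase, is NM_001199432, on the minus strand at chr9:20711649-20764332 in mm9. In early G1 it had 262, 258 and 257 CPM in withdrawn replicates 1, 2 and 3, against 149, 237 and 283 CPM with DOX. In late G1 it had 310, 288 and 353 CPM after withdrawal, against 234, 238 and 344 CPM with DOX. In G2 it had 351, 265 and 351 CPM after withdrawal, against 226, 232 and 290 CPM with DOX. The groups overlapped in every phase, and early G1 DOX replicate 1 was the lowest of all libraries. The log2 changes of 0.22 ± 0.20, 0.22 ± 0.20 and 0.37 ± 0.20 missed the threshold (edgeR adjusted p = 0.793, 0.706 and 0.411 without the block and 0.370, 0.349 and 0.107 with it). Without early G1 DOX replicate 1 the early G1 change was -0.01.

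Tet1, the Tet enzyme long known in ES cells, is NM_027384, on the minus strand at chr10:62267317-62342762 in mm9. Its early G1 levels were 431, 589 and 581 CPM in withdrawn replicates 1, 2 and 3, against 206, 459 and 571 CPM with DOX. Its late G1 levels were 451, 608 and 695 CPM after withdrawal, against 327, 455 and 527 CPM with DOX. Its G2 levels were 651, 597 and 708 CPM after withdrawal, against 337, 470 and 604 CPM with DOX. The groups overlapped in every phase, while each withdrawn library was above the DOX library of its number. The log2 changes were 0.37 ± 0.29, 0.42 ± 0.29 and 0.47 ± 0.29 (edgeR adjusted p = 0.737, 0.582 and 0.487), and 0.44 ± 0.17, 0.43 ± 0.17 and 0.53 ± 0.17 with the block (edgeR adjusted p = 0.140, 0.119 and 0.0504). Without early G1 DOX replicate 1 the early G1 change without the block was 0.05.

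Tet2, which lacks the CXXC DNA-binding domain that Tet1 carries, is NM_001040400, on the minus strand at chr3:133126640-133207354 in mm9. In early G1 it had 140, 264 and 253 CPM in withdrawn replicates 1, 2 and 3, against 86.9, 203 and 259 CPM with DOX. In late G1 it had 150, 284 and 302 CPM after withdrawal, against 130, 213 and 260 CPM with DOX. In G2 it had 212, 269 and 299 CPM after withdrawal, against 131, 213 and 266 CPM with DOX. Replicate 1 was the lowest library of each of the 6 groups, and the DOX states overlapped in every phase. The log2 changes of 0.26 ± 0.37, 0.29 ± 0.37 and 0.36 ± 0.37 missed the threshold (edgeR adjusted p = 0.893, 0.805 and 0.710). Under the block the SE fell to 0.14 and the changes of 0.33, 0.28 and 0.42 still did not pass (edgeR adjusted p = 0.186, 0.218 and 0.0583). Without early G1 DOX replicate 1 the early G1 change without the block was -0.07.

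Tet3, the Tet enzyme best known from the oocyte and the zygote, is NM_183138, on the minus strand at chr6:83312367-83391672 in mm9. Levels in early G1 were 17.1, 9.86 and 14.5 CPM in withdrawn replicates 1, 2 and 3, against 8.94, 11.4 and 9.92 CPM with DOX. Levels in late G1 were 17.0, 11.9 and 12.6 CPM after withdrawal, against 8.32, 10.4 and 11.2 CPM with DOX. Levels in G2 were 18.5, 10.0 and 12.6 CPM after withdrawal, against 9.16, 6.36 and 10.98 CPM with DOX. The groups were apart in late G1 alone, and withdrawn replicate 1 was the highest library in each phase. The log2 changes of 0.46 ± 0.25, 0.47 ± 0.25 and 0.63 ± 0.25 missed the threshold (edgeR adjusted p = 0.598, 0.456 and 0.254 without the block and 0.257, 0.187 and 0.0649 with it).

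Counted by phase, 2 of the 7 members in the first, 4 in the second and 3 in the last (early G1 to G2) stood higher in every withdrawn library than in any DOX library, against 6.78%, 8.14% and 8.96% of all genes. Dnmt3b, Dnmt3l and Tet1 were higher after withdrawal in 9 of 9 same-numbered pairs and the other 4 members in 8 of 9. The share of all genes with as many higher pairs was not counted, in exons or introns. The pairs repeat the same replicate numbers over phases, so these counts are no result about the members. In early G1 the pair of replicate number 1 had the largest difference of the 3 pairs for each of the 7 genes. Early G1 DOX replicate 1 was the lowest of the 18 libraries for Dnmt1, Dnmt3a, Dnmt3b, Dnmt3l, Tet1 and Tet2. That library also had the highest intronic share of counts, 46.0%, followed by 42.0% in early G1 DOX replicate 2 and 41.7% in late G1 DOX replicate 2. The part of this share in the results was not tested. Without that library the early G1 changes of Dnmt3b and Dnmt3l were 0.49 and 0.45 in the fit without the block.

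When the 3 phases of each replicate number were summed, so that each number gave 1 withdrawn and 1 DOX sample, 0 members passed without the block, against 0.155% of 14847 genes (edgeR), while 4 had an unadjusted p under 0.05, where 7.53% of genes were higher and 6.43% lower at that p, and DESeq2 called Dnmt3b and Dnmt3l, against 3.57% of genes. With the block 4 members rose, against 6.66% of all genes, and no member fell, against 5.02%. These were Dnmt3b (0.77 ± 0.12, edgeR adjusted p = 0.00463), Dnmt3l (0.73 ± 0.09, edgeR adjusted p = 0.00197), Tet1 (0.49 ± 0.12, edgeR adjusted p = 0.0260) and Tet2 (0.37 ± 0.10, edgeR adjusted p = 0.0402). Tet3, Dnmt3a and Dnmt1 had changes of 0.52, 0.35 and 0.30 that did not pass (edgeR adjusted p = 0.0547, 0.0677 and 0.0995). The Tet2 call was lost without number 2 (edgeR adjusted p = 0.144).

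**Figure D2:**
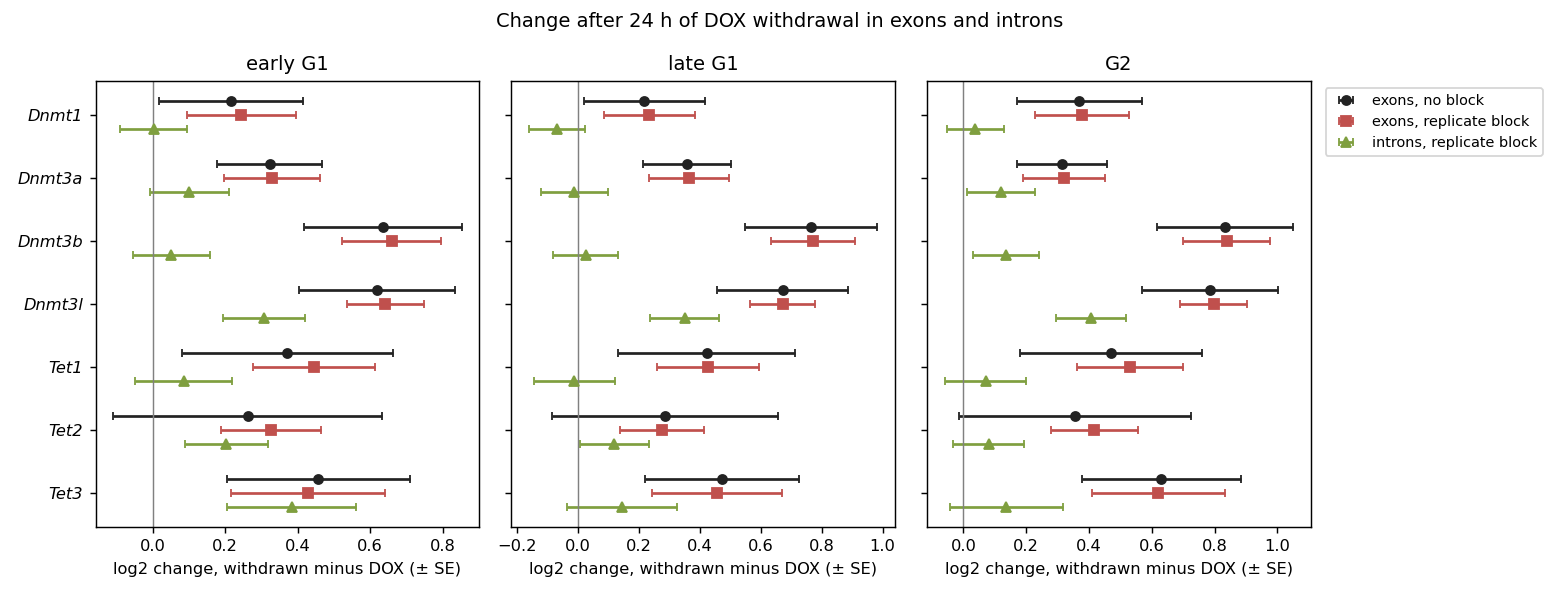
Log2 change after withdrawal (horizontal axes, withdrawn minus DOX, ± SE) of the 7 genes in each phase, from exonic counts without the replicate block (black circles), exonic counts with it (red squares) and intronic counts with it (green triangles). The exonic points lie right of 0 for every gene, those of Dnmt3b and Dnmt3l lie furthest right, and the intronic points lie nearer to 0 than the exonic ones.

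The cell cycle comparison asked whether these genes differ between phases. Among the 6 exonic phase differences, 3 with each DOX state, the members ranged from -0.18 (Tet3, G2 minus early G1 with DOX) to 0.32 (Dnmt1, G2 minus early G1 after withdrawal). None passed (edgeR adjusted p from 0.974 to 1.00, lowest 0.381 with the block), and 0% of all genes passed in each of these comparisons. At an unadjusted p under 0.05, 0 members were past the threshold without the block, against 136 to 588 of 14092 genes, and DESeq2 called 0 genes. Ccna2, the gene of the sorting reporter, did not pass in G2 minus early G1 either. Its differences were 0.44 with DOX and 0.40 after withdrawal (edgeR adjusted p = 0.9997 and 0.974). In introns the members ranged from -0.37 (Tet3) to 0.33 (Tet1), again with 0% of genes called by edgeR and 0 by DESeq2. Of these intronic differences 1 had an unadjusted p under 0.05, that of Tet2 in G2 minus early G1 with DOX (0.29 ± 0.13), where 1.42% of genes did. Dnmt1, which is known to act at replication, had exonic means of 259 ± 2.20, 317 ± 32.9 and 322 ± 49.8 CPM in early G1, late G1 and G2 after withdrawal, and of 223 ± 68.2, 272 ± 62.5 and 250 ± 35.1 CPM with DOX (SD, n = 3). The differences in response between phases were -0.04 to 0.20 and 0 members or other genes passed (edgeR adjusted p of at least 1.00 after rounding). At an unadjusted p under 0.05 there were 0 members, against 36 to 72 of 14092 genes, and DESeq2 called 0 genes. Larger changes in G2 than in early G1 are therefore not shown to be different responses.

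Intronic counts, which hold reads of unspliced RNA, were compared in the same way. The log2 changes of the members after withdrawal were 0.01 to 0.40 in early G1, -0.07 to 0.34 in late G1 and 0.05 to 0.39 in G2, with medians of 0.10, 0.03 and 0.12 against 0.01, 0.00 and 0.01 over all genes. None of the 7 passed without the block, against 0%, 0.0142% and 0.0142% of 14075 genes (edgeR), and 0, 1 and 1 members had an unadjusted p under 0.05, against 5.73%, 5.83% and 7.70% of genes. None rose with the block, against 0.263%, 0.277% and 0.945% of genes. DESeq2 called 13, 18 and 45 genes, none of them members. Every withdrawn library stood above every DOX library for 0, 0 and 1 members, against 5.48%, 5.27% and 5.29% of genes, and that member was Dnmt3l in G2.

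For Dnmt3l the intronic levels in early G1 were 51.9, 65.6 and 59.2 CPM in withdrawn replicates 1, 2 and 3, against 37.9, 51.2 and 54.1 CPM with DOX. In late G1 they were 59.0, 48.8 and 67.8 CPM after withdrawal, against 40.3, 46.5 and 51.6 CPM with DOX. In G2 they were 65.4, 63.9 and 71.3 CPM after withdrawal, against 43.0, 53.5 and 56.3 CPM with DOX. All 9 same-numbered pairs were higher after withdrawal, and the groups overlapped in early and late G1. The intronic changes of Dnmt3l were 0.30 ± 0.16, 0.34 ± 0.16 and 0.39 ± 0.16 (edgeR adjusted p = 0.903, 0.834 and 0.567, and 0.236, 0.168 and 0.0671 with the block). Summed over the phases, intronic Dnmt3l rose by 0.36 ± 0.08 with the block (edgeR adjusted p = 0.0308) and was the only member called, against 2.01% of genes that rose. Without the block 0 members passed on the sums, as did 0% of 14966 genes (edgeR), with 1 member at an unadjusted p under 0.05, against 6.73% of genes.

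For Dnmt3b the intronic levels were 78.3, 84.2 and 82.7 CPM in early G1 after withdrawal, against 73.9, 71.95 and 91.1 CPM with DOX. In late G1 they were 75.8, 67.6 and 93.0 CPM after withdrawal, against 85.1, 68.1 and 78.2 CPM with DOX. In G2 they were 101, 84.2 and 91.3 CPM after withdrawal, against 80.7, 86.5 and 85.6 CPM with DOX. The groups overlapped in every phase. The changes were 0.05 ± 0.13, 0.03 ± 0.13 and 0.13 ± 0.13 (edgeR adjusted p = 0.996, 1.00 and 0.861). With the block they were 0.05 ± 0.11, 0.03 ± 0.11 and 0.13 ± 0.11 (edgeR adjusted p = 0.889, 0.952 and 0.548). Dnmt3b, whose exonic change was the largest of the 7 in each phase, thus had no intronic call in either fit.

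The ratio of exonic to intronic CPM was tested to set both readings of a gene against each other. For Dnmt3b the log2 ratio was higher after withdrawal by 0.61 ± 0.19, 0.75 ± 0.19 and 0.70 ± 0.19 in early G1, late G1 and G2, and it did not pass over 12516 genes (limma adjusted p = 0.707, 0.354 and 0.264). The corresponding differences were 0.33 ± 0.15, 0.34 ± 0.15 and 0.39 ± 0.15 for Dnmt3l (limma adjusted p = 0.762, 0.625 and 0.398). They were 0.38 ± 0.21, 0.43 ± 0.21 and 0.47 ± 0.21 for Tet1 (limma adjusted p = 0.819, 0.673 and 0.485). All 7 members had a higher mean ratio after withdrawal in each phase, with medians of 0.27, 0.34 and 0.39 against 0.02, 0.02 and 0.01 over all genes. By limma 0 members passed, against 0%, 0% and 0.00799% of genes, and 2, 2 and 3 members had an unadjusted p under 0.05, against 6.23%, 7.47% and 10.1% of genes. The ratio uses the intronic counts of the libraries whose intronic share stood high, and their part in it was not tested.

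Other genes of the pathway were taken from 6 lists with 71 genes in all, every one of which was tested. Without the block 0 of the 71 passed in any phase (edgeR). With the block the counts were 0 rises beside 1 fall in early G1, 4 beside 3 in late G1 and 4 beside 5 in G2. These shares of 71 genes lie near those of all genes with the block, which were 1.83% rising and 2.20% falling, 4.80% and 4.24%, and 5.77% and 5.44%, so the single calls named next are values of those genes and no result about the lists. On the sums over phases with the block, Hells, Lig1, Nsd1, Setd2 and Zbtb33 rose and Suv39h1, Idh2 and Dazl fell, 5 and 3 of the 71, against 6.66% and 5.02% of all genes. The medians of all 71 were -0.00, -0.01 and 0.02, beside 0.00, 0.00 and -0.01 over all genes tested. The counts rest on single replicate numbers: without number 1, 2 and 3 the block gave 2, 0 and 1 calls in early G1, 9, 1 and 1 in late G1, 3, 2 and 1 in G2, and 21, 3 and 6 on the sums. DESeq2 with the block called 5, 9 and 11 of the 71, and the share of all genes in that fit was not counted.

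The 12 maintenance partners, which work with Dnmt1 at the replication fork or at imprints, had medians of 0.11, 0.18 and 0.11. Hells, a chromatin remodeller needed for normal methylation, rose in late G1 (0.43 ± 0.10) and G2 (0.37 ± 0.10), and Lig1, a DNA ligase of the replication fork, rose in late G1 (0.48 ± 0.15) and G2 (0.59 ± 0.15), all with the block (edgeR adjusted p = 0.0145, 0.0241, 0.0480 and 0.0162). Hells had 241, 511 and 435 CPM in late G1 after withdrawal, against 205, 316 and 349 CPM with DOX, and these groups overlapped. Lig1 had 184, 140 and 188 CPM in G2 after withdrawal, against 110, 97.3 and 133 CPM with DOX, and these groups did not overlap. In G2 8.96% of all genes stood higher in this way. Uhrf2, a relative of the Dnmt1 cofactor Uhrf1, fell in G2 (-0.33 ± 0.09 with the block, edgeR adjusted p = 0.0288) but not on the sums (-0.22, edgeR adjusted p = 0.132). Trim28, a corepressor at imprints and retroviral elements, had a change of 0.38 ± 0.14 in G2 that missed the threshold with the block (edgeR adjusted p = 0.0927).

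Among the 11 genes of de novo targeting and restraint, with medians of 0.04, -0.03 and 0.07, the calls with the block fell on histone methyltransferases. Setd2, which writes the H3K36 trimethylation that recruits Dnmt3b, rose in late G1 (0.32 ± 0.09) and G2 (0.36 ± 0.09; edgeR adjusted p = 0.0406 and 0.0218). Nsd1, which writes H3K36 dimethylation, rose in G2 (0.46 ± 0.12; edgeR adjusted p = 0.0245). Suv39h1, which writes H3K9 trimethylation, fell in late G1 (-0.58 ± 0.13) and G2 (-0.47 ± 0.13; edgeR adjusted p = 0.0110 and 0.0260). Suv39h1 had 18.4, 16.9 and 18.9 CPM in G2 after withdrawal, against 34.1, 20.5 and 21.8 CPM with DOX, without overlap. Of the 8 methyl-CpG readers, with medians of 0.06, -0.07 and 0.10, Zbtb33, which encodes the reader Kaiso, rose in late G1 (0.51 ± 0.13 with the block; edgeR adjusted p = 0.0215).

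The 21 oxidation partners and base excision genes had medians of -0.06, -0.11 and -0.09, and the calls were all falls. Idh2, the mitochondrial isocitrate dehydrogenase that makes the 2-oxoglutarate that Tet enzymes consume, had 83.3, 95.1 and 73.3 CPM in early G1 after withdrawal, against 150.0, 143 and 105 CPM with DOX. It had 81.3, 97.4 and 77.2 CPM in late G1 and 79.1, 96.7 and 74.5 CPM in G2 after withdrawal, against 140, 148 and 112 CPM and 141, 146 and 105 CPM with DOX. Every withdrawn library of Idh2 was thus below every DOX library of its phase. The share of all genes that were lower in this way was not counted, here or for Suv39h1. With the block Idh2 fell by 0.66 ± 0.09, 0.64 ± 0.09 and 0.64 ± 0.09 in early G1, late G1 and G2 (edgeR adjusted p = 0.000770, 0.000573 and 0.000409, and 0.173, 0.105 and 0.0742 without it). The cytosolic enzyme Idh1 fell in G2 (-0.40 ± 0.10 with the block; edgeR adjusted p = 0.0164), and the glycosylase gene Neil1 fell in late G1 (-0.64 ± 0.18 with the block; edgeR adjusted p = 0.0392). On the sums with the block both calls were lost (-0.30 and -0.33; edgeR adjusted p = 0.0593 and 0.167). The glycosylase genes Neil2 and Neil3 did not pass with the block: Neil2 in early G1 (-0.45 ± 0.25; edgeR adjusted p = 0.309) and late G1 (-0.32 ± 0.25; edgeR adjusted p = 0.464), and Neil3 in G2 (-0.46 ± 0.21; edgeR adjusted p = 0.164).

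None of the 9 genes of methyl donor supply passed in any phase, with medians of 0.05, 0.01 and 0.07. Of the 10 germline genes that DNA methylation is known to silence, with medians of -0.14, -0.01 and -0.20, Mael fell in G2 (-0.53 ± 0.16 with the block; edgeR adjusted p = 0.0379) but not on the sums (-0.36; edgeR adjusted p = 0.0580). Dazl and Sycp3 had changes of -0.50 ± 0.16 and -0.56 ± 0.23 in early G1 with the block (edgeR adjusted p = 0.0800 and 0.177), and Sycp3 one of -0.57 ± 0.23 in G2 (edgeR adjusted p = 0.119). On the sums with the block Dazl fell (-0.37 ± 0.10; edgeR adjusted p = 0.0421). Slc25a31 had 0.30 ± 0.20 and Nsd1 0.32 ± 0.12 in late G1 with the block, and neither passed (edgeR adjusted p = 0.370 and 0.110).

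Over the 18 libraries the exonic log2 CPM of the members varied together to unequal degrees, given here as a description since the libraries share groups, replicate numbers and depth. Pearson r was highest between Tet1 and Tet2, at 0.94, and was 0.90 between Dnmt3b and Dnmt3l and 0.90 between Dnmt3a and Dnmt3b. It was lowest between Tet2 and Tet3, at 0.11, where replicate 1 was low for Tet2 and, after withdrawal, high for Tet3. Of the 10850 genes whose log2 CPM averaged 2 or more, those most like Dnmt3b were Zzef1, Helz and Pa2g4, and those most like Dnmt3l were Ddx58, Hnrnpu and Dnajc7. The 3 most like Dnmt1 were Pole, Dhx8 and Gemin5, and the 3 most like Dnmt3a were Ctnnd1, Sptbn1 and Ddx18. For Tet1 they were Cnot1, Tns3 and Ehmt1, for Tet2 Ctcf, 8030462N17Rik and E2f3, and for Tet3 Ylpm1, Kmt2a and Baz2a. Across all these 21 genes r ran from 0.943 to 0.984.

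The ChIP-seq asked where Esrrb is bound beside these genes, whether that binding depends on DOX and whether it is seen in mitosis. Of 14559 Esrrb peaks, 23 had their centre within 50 kb of the start of a member in mm9. Dnmt3b had 6, Dnmt1 5, Dnmt3l 4, Tet1 and Tet2 3 each, Tet3 2 and Dnmt3a 0. Thus 6 of the 7 members had at least 1 peak, against 51.0% of all 20300 genes. These include genes that failed the filter on low counts, which all 7 members passed. The share among genes that passed was not counted. The authors class each peak as bookmarked, which names binding that is kept in mitosis, or lost. Of the 23 peaks 4 were bookmarked, 1 each beside Dnmt1, Dnmt3b, Tet1 and Tet2. Hence 4 of 7 members had a bookmarked peak, against 14.9% of the same 20300 genes. The sources used here do not give the rule behind these classes.

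**Figure D3:**
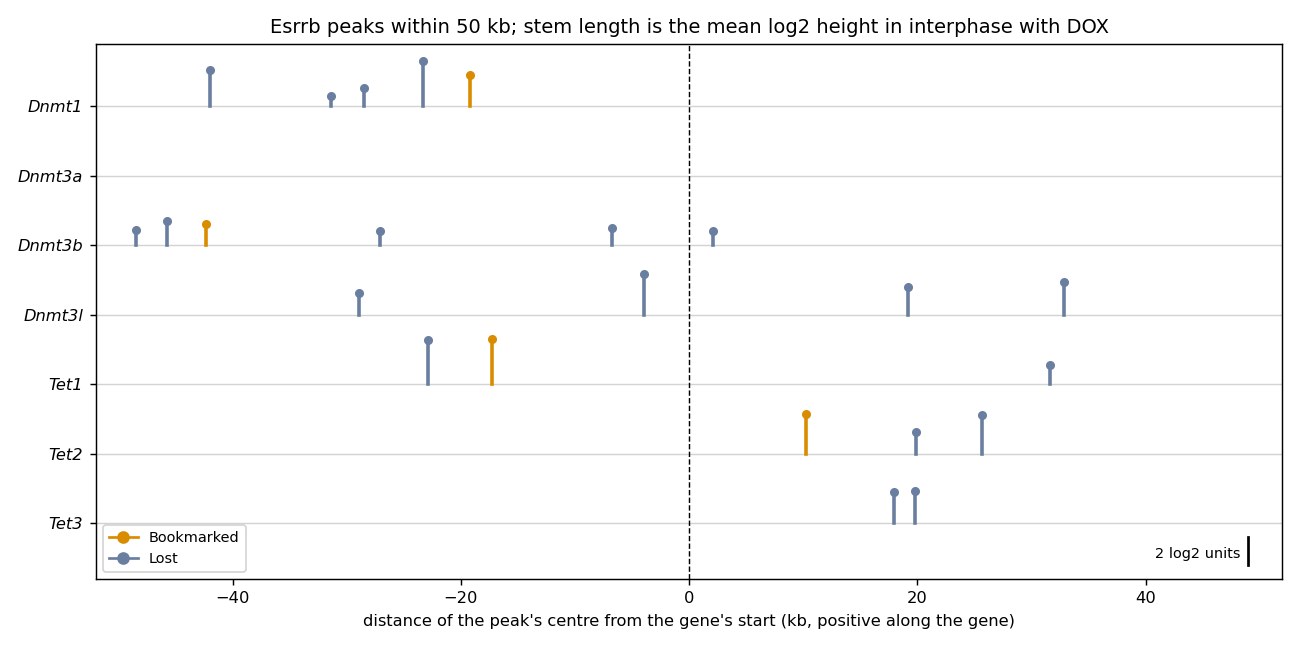
Position of the 23 Esrrb peaks by distance from each gene's start (horizontal axis in kb, positive along the gene, dashed line at the start), with stem length showing the mean log2 height in interphase with DOX (scale bar, 2 log2 units) and colour showing the authors' class. The peaks of Dnmt1 all lie before its start, those of Tet2 and Tet3 all lie within the gene, and Dnmt3a has none.

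By position, the peaks nearest to a start were 2.12 kb inside Dnmt3b (chr2:153475951-153478650), 3.93 kb before Dnmt3l (chr10:77500801-77501400) and 6.73 kb before Dnmt3b (chr2:153468151-153468750), all in mm9 and all classed lost. Distances are from the start given with the counts. RefSeq also gives Dnmt3l starts further in, and distances from those were not taken. The bookmarked peaks lay 42.4 kb before Dnmt3b (chr2:153432151-153433500), 19.2 kb before Dnmt1 (chr9:20781301-20785800), 17.3 kb before Tet1 (chr10:62358001-62362050) and 10.2 kb inside Tet2 (chr3:133196551-133197750). The bookmarked peak beside Dnmt1 is nearer to the start of S1pr2, at 2.31 kb, and that beside Dnmt3b is nearer to the start of Commd7, at 25.7 kb. A count within 50 kb therefore does not assign a peak to a gene. For Dnmt3a, 6 peaks lay further along within the gene, from 62.2 to 85.5 kb after its start, the tallest of them a bookmarked peak at 83.2 kb (mm9 chr12:3889651-3890700). RefSeq on GRCm38.p6 gives Dnmt3a a further start 84.8 kb after its outermost one, and a short isoform of Dnmt3a that starts internally is known in ES cells. Positions in the 2 builds were not converted.

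Peak heights are log2 reads per kb of peak, scaled to the library's total reads, a scale read from the values. For each gene the peak with the highest mean in interphase with DOX is given by library, so that its standing high in that group follows from the choice and its differences against that group are a description. The tallest peak beside Dnmt3l, 3.93 kb before its start, had heights of -3.63 and -0.70 in mitosis after withdrawal, against -0.18, 0.05, 0.19 and 0.51 in mitosis with DOX. In interphase it had -2.41 and -0.79 after withdrawal, against 1.48, 2.87, 2.28 and 5.02 with DOX. The value of -3.63 stands for 0 reads, since empty peaks are set to 0.9 read in the table. The interphase libraries with DOX, for which the peak was chosen, did not overlap with the others. The mitosis libraries with DOX also stood above all withdrawn libraries at this peak, which is classed lost.

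The tallest peak beside Dnmt3b lay 45.7 kb before its start, with that of Commd7 nearest at 29.1 kb. It had -1.16 and -1.18 in mitosis after withdrawal, against -0.23, -0.64, -0.04 and 0.18 in mitosis with DOX. In interphase it had -2.99 and -0.60 after withdrawal, against 1.32, 1.802, 1.97 and 1.84 with DOX. The 4 interphase libraries with DOX lay close together, and their standing above the rest follows from the choice. Within mitosis the libraries with DOX stood above the withdrawn ones. The tallest peak beside Tet1, the bookmarked one, had -1.71 and -0.96 in mitosis after withdrawal, against 1.41, 0.77, 0.52 and 1.20 in mitosis with DOX. In interphase it had -1.71 and -0.76 after withdrawal, against 2.42, 3.50, 2.93 and 4.22 with DOX. Here the mitosis libraries with DOX stood apart both from the withdrawn libraries below them and from the interphase libraries above them.

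The tallest peak beside Tet2, also bookmarked, had -1.48 and -0.73 in mitosis after withdrawal, against 0.69, 0.51, 0.12 and 0.56 in mitosis with DOX. In interphase it had -0.67 and -0.60 after withdrawal, against 2.05, 3.11, 2.68 and 3.60 with DOX. It showed the same order of groups as the Tet1 peak. The tallest peak beside Dnmt1, 23.3 kb before its start, 6.44 kb from that of S1pr2 and classed lost, had -2.22 and -0.37 in mitosis after withdrawal, against 0.45, -0.34, 0.24 and -0.35 in mitosis with DOX. In interphase it had -1.32 and -0.53 after withdrawal, against 2.56, 3.30, 2.67 and 4.46 with DOX. The tallest peak of Tet3, 19.8 kb inside the gene, averaged -2.07 ± 1.72 in mitosis after withdrawal (SD, n = 2), -1.02 ± 0.76 in mitosis with DOX (n = 4), -1.85 ± 0.20 in interphase after withdrawal (n = 2) and 2.34 ± 1.15 in interphase with DOX (n = 4). In mitosis the DOX states overlapped at the Tet3 peak. At the Dnmt1 peak the nearest libraries of both states differed by less than their groups' spread. Where DOX states stood apart in mitosis at these tallest peaks, this is a description, since the share of all peaks was not counted.

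**Figure D4:**
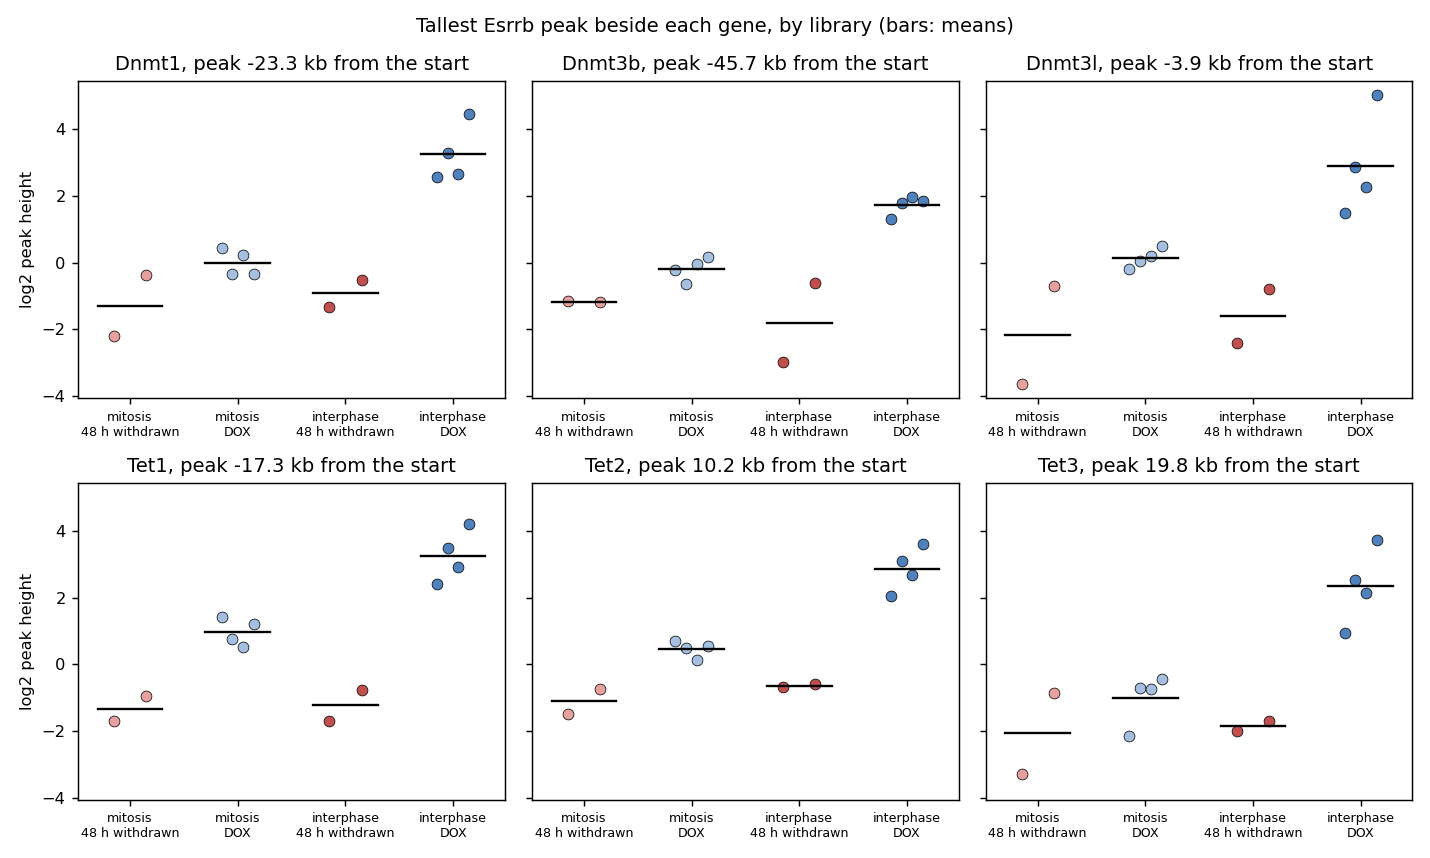
Height (vertical axes, log2 reads per kb of peak, scaled to total reads) of the tallest peak beside 6 of the genes in each of the 12 ChIP-seq libraries, with mitosis after withdrawal, mitosis with DOX, interphase after withdrawal and interphase with DOX from left to right; bars are group means. The peaks were chosen for the highest mean in interphase with DOX, so that this group lies highest by choice. In mitosis, libraries with DOX lie above the withdrawn ones at every peak shown except that of Tet3, by a small gap at that of Dnmt1. The share of all peaks with such a gap was not counted. Median heights over all peaks in mitosis were -2.80 and -1.09 after withdrawal, against -0.95, -0.37, -0.47 and -0.42 with DOX.

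In interphase all 23 peaks were lower after withdrawal, by 2.28 to 4.75 on the log2 scale (limma adjusted p of at most 0.00120), against 99.6% of all peaks. The median was -4.08, against -3.74 over all peaks. All these regions are listed as Esrrb peaks, so lower heights without DOX may follow from how they were picked. This count is therefore no test of whether binding depends on DOX. In mitosis 8 of 23 were lower after withdrawal, against 22.4% of all peaks, with a median of -1.51 against -1.33. These 8 were the bookmarked peaks of Dnmt3b (-2.79 ± 0.68, limma adjusted p = 0.0105), Tet1 (-2.31 ± 0.56, limma adjusted p = 0.0101) and Tet2 (-1.58 ± 0.53, limma adjusted p = 0.0364), and lost peaks of Dnmt1, Tet2, Tet3 and, with 2, Dnmt3l. The mitosis count rests on single libraries: it was 0 without withdrawn replicate 1 and 17 without withdrawn replicate 2, it was 5 and 4 without DOX replicates 2 and 4, and edgeR on the reads recovered from the heights called 0. With DOX, 22 of 23 peaks were lower in mitosis than in interphase, by 1.45 to 3.35, against 91.4% of all peaks, and the median was -2.47 against -2.26. The exception was the bookmarked peak 42.4 kb before Dnmt3b, which averaged 0.40 ± 0.23 in mitosis and 1.54 ± 0.40 in interphase with DOX (SD, n = 4), a difference of -1.14 ± 0.55 (limma adjusted p = 0.0524, and 0.0301 in edgeR on recovered reads). When each library was centred on its own median peak, 0 of the 23 passed in any of the 3 comparisons (limma), against 3.32%, 0.0412% and 3.43% of all peaks for withdrawal in interphase, withdrawal in mitosis and mitosis against interphase. At an unadjusted p under 0.05 there were 1, 6 and 6 of the 23. The share of all peaks at that p was not counted, so these counts are no result about the member peaks. The withdrawn libraries had 0.303 to 0.707% of their reads in peaks, against 1.11 to 1.29% in mitosis with DOX and 3.11 to 9.83% in interphase with DOX.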

How the data were processed

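RNA-seq counts of exons and introns and the heights of Esrrb ChIP-seq peaks were used as the authors deposited them. The count tables hold whole reads per gene, deposited unnormalised, and peak heights are log2 values that the authors deposited; their scale was read from the values. Genome build mm9 and CASAVA 1.8, Bowtie and DESeq2 are named in the submitters' processing notes with no role, and no source used here names the counting tool, its strand setting or the peak caller. The ChIP-seq columns named noco were taken as mitosis and those named asy as interphase, and 4 pooled columns were not used. Introns had rows for 17916 genes, and 27 symbols that a spreadsheet had turned into dates were restored in each table.

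Counts were filtered with filterByExpr (minimum count 10), scaled by TMM and tested with the quasi-likelihood method of edgeR 4.0.16 in R 4.3.3 over all 6 groups, with Benjamini-Hochberg adjustment over all genes tested and a threshold of 0.05. DESeq2 1.42.0 was an alternative. Exonic to intronic ratios (log2, pseudocount 0.5 CPM) and peak heights were tested with limma 3.58.1. A fit with the replicate number as a block was an alternative, and same-numbered libraries deviated together in each of the 9 pairs (r from 0.159 to 0.559 in exons and from 0.104 to 0.471 in introns), so it is given beside the results. In exons 7 of the 9 pairs, and in introns 9, correlated best with their own number. The exonic exceptions were number 2 in early G1 (0.203 against 0.270) and in G2 (0.159 against 0.174). The rule was an r above 0.1 in every pair. Ratios missed it narrowly, with 8 of 9 pairs above 0.1, a lowest r of 0.098 and 8 pairs best with their own number. ChIP-seq heights missed it with an r of -0.306 between mitosis and interphase with DOX for number 2. Peaks were assigned to a gene when their centre lay within 50 kb of its start, and whole reads were recovered from heights (100% of values whole within 0.05 read). ChIP-seq libraries held 10.7 to 67.5 M (mega) reads. The tests were checked on simulated data. The 7 members, the pathway and marker lists and the other named genes were chosen with earlier results of these data known. Genes outside the lists were named as the 3 with the highest Pearson r to a member, and from the lists the called genes and the 3 largest uncalled changes of a phase were named. Promoter windows were credited to RefSeq GRCm38.p6 and matched by symbol for all 7 members, and no coordinates were moved between builds.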

Additional observations from a re-analysis of the deposited data

How the results depend on the processing

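Without the replicate block 0 members were called in any phase by edgeR; with the replicate block 2 were called in each phase (2, 2 and 2), 4 on the summed phases, and 1 on summed introns. DESeq2 called 1 in late G1, 2 in G2 and 2 on the sums, against 2.50%, 3.26% and 3.57% of genes. With the block it called 5 in G2. The share of all genes in that fit was not counted, so the 5 are no result about the members. Leaving out 1 library gave 0 to 1 members in G2 (1 without withdrawn replicate 2). With the block, leaving out a replicate number gave 0 to 2 members in early G1 (0 without number 2 or 3) and 1 to 3 in late G1 (1 without number 2 or 3). Genes called by edgeR without the block, with it and by DESeq2 numbered 23, 568 and 139 in early G1, 65, 1274 and 339 in the next phase, 137, 1580 and 460 in G2, and 23, 1734 and 530 on the sums; for introns they were 0, 67 and 13, 2, 89 and 18, 2, 228 and 45, and 0, 521 and 72. Ratios gave 0, 0 and 1 genes without the block and 5, 2 and 14 with it. The alternative settings reuse the same libraries and are not independent, and the share of all genes that kept a direction was not counted. Of 308 values of the members' exonic changes under these settings, 306 were above 0. The exceptions, without early G1 DOX replicate 1, were Dnmt1 (-0.0052, highest 0.44) and Tet2 (-0.069, highest 0.62). Leaving out 1 library also gave -0.015 to 0.48 for Slc25a31 in late G1, and for intronic Dnmt3b -0.016 to 0.16 in early G1 and -0.11 to 0.13 in late G1, with -0.05 without another library.

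Peaks lower after withdrawal in interphase, after withdrawal in mitosis, and in mitosis against interphase were counted in other ways. With heights centred on each library's median they numbered 0, 0 and 0 of 23, against 404, 6 and 177 of all 14559 peaks. Of the 12 peaks within 25 kb they were 12, 4 and 12, and of the 37 within 100 kb 37, 13 and 36. The shares of all peaks in that fit were 99.6%, 22.4% and 91.4%. With the replicate block, which the libraries' numbers do not warrant, they were 23, 9 and 23 of the 23. The shares of all peaks with the block were 99.9%, 36.8% and 96.2%. In mitosis the count was 4 without the wild-type libraries, 0 in edgeR on recovered reads and 0 to 17 leaving out 1 library. Centred heights were 0.12 (Dnmt3b) and 0.16 (Tet2) higher after withdrawal in interphase, 0.10 (Dnmt1), 0.40 (Dnmt3b) and 0.34 (Tet3) higher after withdrawal in mitosis, and 0.20 (Dnmt3b) higher in mitosis than interphase. The Tet3 difference in mitosis ran from -2.27 to 0.16 leaving out 1 library. The causes of these changes were not tested. Of 14559 peaks, 3466 held 0 reads in mitosis withdrawn replicate 1 (18.6 M reads) and 2418 in interphase withdrawn replicate 1 (26.6 M), against 6 in interphase DOX replicate 4 (10.7 M), the library with the fewest reads.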
